A study of Caenorhabditis elegans with 13 samples.

Results

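The genes described here make or package neurotransmitters in Caenorhabditis elegans. They are unc-17 and cha-1 (acetylcholine), unc-25, unc-47 and unc-46 (GABA), eat-4 (glutamate), and cat-1, cat-2 and tph-1 (monoamines). The members are 9 of the 17118 genes that some probe set of the Affymetrix C. elegans array names alone, and every probe set naming only 1 of them was used, 14 of 22548 in all. Muscle samples came from PD4251 embryos, whose integrated transgene ccIs4251 expresses myo-3::GFP, and GFP-positive cells were obtained from them on a flow sorter, either right after dissociation (3 arrays, M0) or once the cells had been cultured for 24 hr (3 arrays, M24). The reference was the whole of the viable cells sorted from embryos that the labels call wild type (N2). They were sorted at 0 hr (3 arrays, R0) or after 24 hr in culture (4 arrays, R24). By these labels the muscle samples carry a transgene that the reference lacks, and strain and cell type cannot be told apart. The study cites earlier work for the R24 experiments, so at 24 hr that origin and cell type cannot be told apart either. The labels give a common culture description that speaks of adults with myo-3::GFP as well as of N2. The myo-3 promoter marks body wall muscle with a few other muscle cells, the sort enriched GFP-positive cells without making them pure, and the reference holds muscle cells as well, which bounds how far any transcript can differ. The embryos were released from gravid adults, and the study places the freshly dissociated cells before morphogenesis.

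A neuron is assigned to a transmitter class by a small set of proteins. A synthetic enzyme makes the transmitter, and a vesicular transporter loads it into synaptic vesicles. In the worm, acetylcholine released by motor neurons excites body wall muscle and GABA relaxes it, so these muscles receive both transmitters and are not themselves known as a source of either.

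The sort was checked with marker genes, each read from its brightest probe set. The myosin heavy chain gene myo-3, the source of the promoter used for the GFP, had log2 intensities of 9.23, 8.92 and 10.41 in M0 against 7.09, 5.85 and 7.22 in R0, and of 9.08, 8.79 and 7.99 in M24 against 7.04, 7.19, 6.50 and 6.58 in R24. Of 8 body wall muscle markers, 8 were raised at 0 hr and 7 at 24 hr. Of 16 neuron markers, 9 were lowered at 0 hr and 8 at 24 hr, none was raised, and their summed intensity was 3366 to 4329 in M0 against 9656 to 10549 in R0 and 3333 to 5360 in M24 against 7442 to 12577 in R24. With scan day as a random block the 8 neuron markers lowered at 24 hr became 2, and without M24 replicate 1 they became 4. On the linear scale the dimmest reading of a neuron marker was 11.9, in M24, against medians of 49.2 to 58.0 over all arrays. Markers of epidermis were lowered for 7 of 8 genes at 0 hr and 6 of 8 at 24 hr, those of pharynx for 4 of 6 and 0 of 6, and those of intestine for 0 of 8 and 1 of 8. M24 replicate 3 stood apart. Its log2 values spanned 3.91 between the lowest and the highest decile, against 4.50 and 4.86 on the other M24 arrays, it had the lowest summed muscle markers of the M24 arrays, 3337, and M24 replicate pairs had squared correlations as low as 0.797. Median intensities were 49.2 to 58.0 on all arrays, and precision is limited by the number of arrays.

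Values are log2 intensities, and a fold change is the log2 difference of muscle less reference with the standard error (SE) of the limma fit. Calls (raised or lowered) were made when a probe set's Benjamini-Hochberg adjusted p, over all 22548 probe sets, was under 0.05 and the fold change was at least 1.7. The values of 0 hr and 24 hr were normalized separately, so a level at 0 hr and a level at 24 hr are set side by side without a test. In RNA from many cells, fewer cells of a type and less RNA per cell cannot be told apart.

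In the reference, most member probe sets lay in the upper part of the intensity range at 0 hr. For unc-17, between 87.4 and 89.2% of all probe sets on an R0 array were dimmer than 172038_x_at, against 60.0 to 71.0% on the R24 arrays. The eat-4 probe set 175628_at exceeded 74.0 to 88.5% of probe sets in R0 and 41.7 to 59.3% in R24. These 2 thus ranked lower on every R24 array than on any R0 array. The same held for unc-25 (79.3 to 86.4% in R0, 57.8 to 77.0% in R24) and for cat-2. It also held for the other unc-17 probe sets, 192428_s_at (79.8 to 84.9% and 65.5 to 73.2%) and 194229_x_at (81.0 to 85.0% and 40.4 to 59.2%). The positions of unc-47, at 78.4 to 85.3% in R0 and 72.4 to 80.9% in R24, and of cat-1, at 69.6 to 80.9% and 70.1 to 75.2%, overlapped between the times. Probe sets for cat-2 (63.3 to 65.0% in R0, 48.7 to 54.2% in R24) and tph-1 (59.5 to 63.0% and 64.8 to 66.9%) were nearer the middle. The dimmest member was 175506_s_at of unc-46, which exceeded only 9.72 to 25.2% of probe sets in R0 and 14.01 to 20.5% in R24. A rank on the array depends on how well each probe set hybridises, so these positions do not order the genes by transcript amount.

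**Figure D1:**
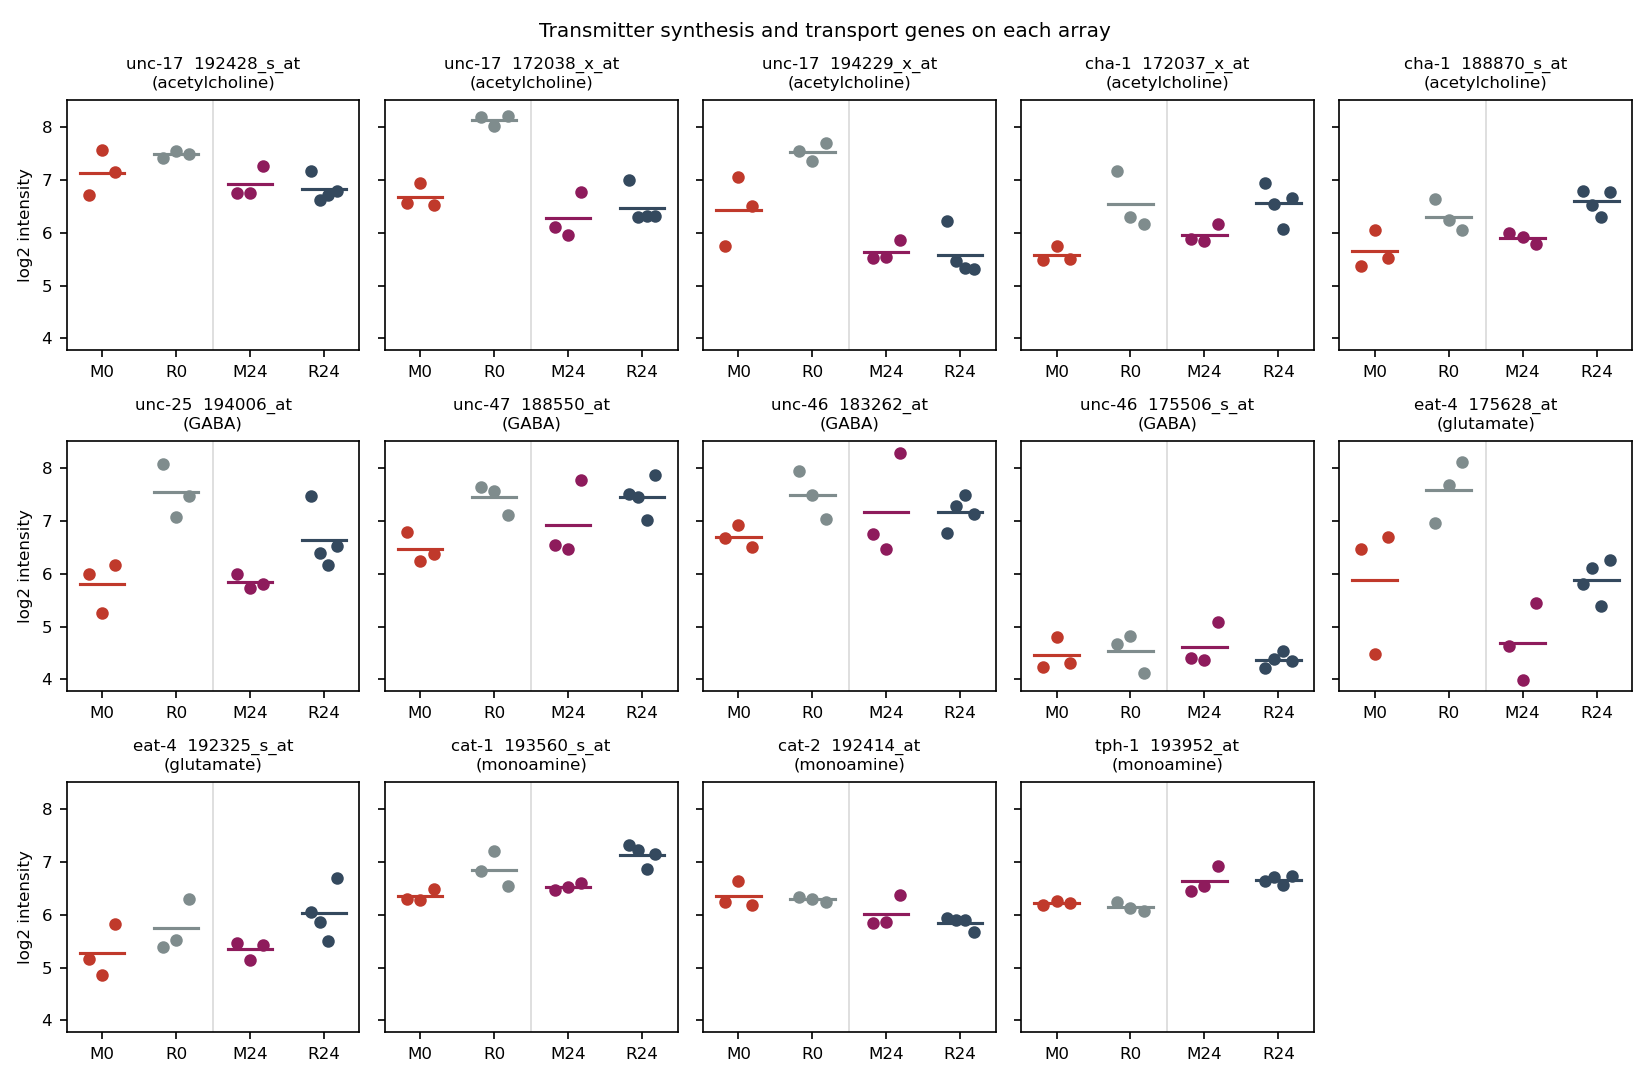
Log2 intensity of the 14 member probe sets on each array, with M0, R0, M24 and R24 from left to right in each panel (points: arrays, in replicate order; bars: group means). At 0 hr the M0 points of unc-25 lie at 5.25 to 6.17, all under the R0 points at 7.09 to 8.08, while the cat-2 and tph-1 groups overlap at 0 hr and at 24 hr.

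Freshly sorted muscle was compared with all embryonic cells of 0 hr to ask which transmitter genes differ in level between them. Of the 9 probe sets of acetylcholine and GABA genes, 5 were lowered in M0. They belonged to 4 of the 9 member genes, unc-17 (2 probe sets), cha-1, unc-25 and unc-47, and no member probe set was raised. Among all probe sets, 7.91% were lowered and 3.81% raised. The median log2 fold change of the 14 was -0.73, against 0.10 over all probe sets, and 12 of the 14 were below 0. All 3 M0 arrays were under all 3 R0 arrays for 9 of the 14, against 14.7% of all probe sets. With each gene represented by its brightest probe set, 3 of 9 genes were lowered (cha-1, unc-25 and unc-47), where 8.27% of all genes were. The count of 5 fell to 2 without R0 replicate 1 or M0 replicate 3, and to 3 without R0 replicate 2 or M0 replicate 1 or 2. The probe sets of 1 gene are not independent of each other.

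The cholinergic gene unc-17 encodes the vesicular acetylcholine transporter. Its probe set 172038_x_at read 6.56, 6.95 and 6.53 in M0 against 8.20, 8.03 and 8.22 in R0. All M0 values were over 1 log2 unit under the lowest R0 value. The log2 fold change was -1.47 ± 0.18 (SE, limma adjusted p = 0.00102), and it passed under every alternative and with any array left out. A further probe set, 194229_x_at, which the platform annotates to the same transcript accession, read 5.74, 7.06 and 6.52 in M0 against 7.55, 7.37 and 7.70 in R0. Here M0 replicate 2 came close to the R0 arrays. The fold change was -1.10 ± 0.30 (limma adjusted p = 0.0456). The call held without M0 replicate 2 (adjusted p = 0.0148) and was lost without any other array (highest adjusted p = 0.148, without R0 replicate 3). It was also lost after quantile normalization (0.149) or with a pseudocount of 32 (0.082). The brightest unc-17 probe set over all arrays, 192428_s_at, read 6.72, 7.56 and 7.15 in M0 against 7.43, 7.55 and 7.49 in R0, so that the groups overlapped and the difference of -0.34 ± 0.23 did not pass (limma adjusted p = 0.382). The probe sets of unc-17 therefore disagree. The suffixes mark probe sets whose probes can match several transcripts of a gene (s_at) or other sequences too (x_at), and which transcripts each one reports was not tested.

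The second cholinergic gene, cha-1, encodes choline acetyltransferase, which makes acetylcholine. Both genes lie in 1 locus with overlapping spans in the RefSeq annotation. Probe set 172037_x_at read 5.48, 5.76 and 5.51 in M0 against 7.17, 6.30 and 6.17 in R0. The 3 M0 arrays lay close together and under all R0 arrays, of which replicate 1 was the highest. The log2 fold change was -0.97 ± 0.27 (limma adjusted p = 0.0452). It shrank to -0.66 without R0 replicate 1 (adjusted p = 0.0802), and the call was also lost without any 1 of the M0 arrays (highest adjusted p = 0.124), after median centring (0.0634), with scan day as a block (0.0564) and with a pseudocount of 32 (0.113). The other cha-1 probe set, 188870_s_at, read 5.38, 6.05 and 5.53 in M0 against 6.63, 6.24 and 6.05 in R0, with a fold change of -0.66 ± 0.24 that did not pass (limma adjusted p = 0.117).

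Of the GABA genes, unc-25 encodes glutamic acid decarboxylase, which makes GABA. It read 6.0, 5.25 and 6.17 in M0 against 8.08, 7.09 and 7.49 in R0. The groups were separated by nearly 1 log2 unit. At -1.75 ± 0.31 (limma adjusted p = 0.0058) it had the most negative fold change of the members at 0 hr, and the call held under all alternatives and with any array left out. The vesicular GABA transporter gene unc-47 read 6.80, 6.24 and 6.37 in M0 against 7.66, 7.58 and 7.12 in R0. No M0 array reached the lowest R0 array. Its fold change was -0.98 ± 0.22 (limma adjusted p = 0.0192), and the adjusted p was as high as 0.0696, with the call lost, when M0 replicate 2 or 3 or R0 replicate 1 or 2 was left out, and it was 0.073 in a fit of all 13 arrays.

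The third GABA gene, unc-46, encodes a LAMP-like membrane protein that brings the UNC-47 transporter to synaptic vesicles. Its probe set 183262_at read 6.68, 6.92 and 6.52 in M0 against 7.96, 7.50 and 7.05 in R0. M0 was again under R0 on every array, with R0 replicate 3 the lowest of its group. The fold change of -0.80 ± 0.25 missed the threshold (limma adjusted p = 0.0701). With the replicate number as a block it passed (adjusted p = 0.0425), and without R0 replicate 3 it was -1.03 (adjusted p = 0.0392). In the other fits of this probe set, with each array left out included, the adjusted p was 0.0593 to 0.227. The dim probe set 175506_s_at read 4.24, 4.80 and 4.32 in M0 against 4.67, 4.81 and 4.13 in R0, and its difference of -0.09 ± 0.24 is near 0 (limma adjusted p = 0.838).

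The vesicular glutamate transporter gene eat-4 had the largest spread. Probe set 175628_at read 6.47, 4.47 and 6.70 in M0 against 6.96, 7.68 and 8.11 in R0. M0 replicate 2 was far under the other M0 arrays, and all M0 arrays were under R0. The fold change of -1.70 ± 0.54 did not pass (limma adjusted p = 0.0793), although it did with dim probe sets left out (adjusted p = 0.0497) or with a variance trend on intensity (adjusted p = 0.042). In the other fits of this probe set, with each array left out included, the adjusted p was 0.0516 to 0.229. Probe set 192325_s_at read 5.16, 4.86 and 5.83 in M0 against 5.39, 5.53 and 6.31 in R0, which overlap, with a fold change of -0.46 ± 0.31 (limma adjusted p = 0.397).

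No monoamine member was called at 0 hr. The vesicular monoamine transporter gene cat-1 read 6.30, 6.28 and 6.49 in M0 against 6.82, 7.21 and 6.55 in R0, every M0 value being under every R0 value by a margin as small as that between 6.49 and 6.55. Its fold change was -0.50 ± 0.21 (limma adjusted p = 0.169). The tyrosine hydroxylase gene cat-2, for dopamine synthesis, read 6.24, 6.64 and 6.18 in M0 against 6.34, 6.31 and 6.24 in R0, a difference of 0.06 with a 95% interval of -0.36 to 0.48 (limma adjusted p = 0.857). The tryptophan hydroxylase gene tph-1, for serotonin synthesis, read 6.19, 6.26 and 6.23 in M0 against 6.24, 6.14 and 6.07 in R0, a difference of 0.08 with a 95% interval of -0.29 to 0.44 (limma adjusted p = 0.788). These 2 enzyme genes differed little in level between any of the 6 arrays. Their R0 means were 0.62 (cat-2) and 0.47 (tph-1) above the array medians, and whether such readings exceed background was not tested at either time. By class, the median fold changes at 0 hr were -0.97 for acetylcholine (5 probe sets, 3 lowered), -0.89 for GABA (4, of which 2 lowered), -1.08 for glutamate (2, none lowered) and 0.06 for monoamines (3, none lowered).

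**Figure D2:**
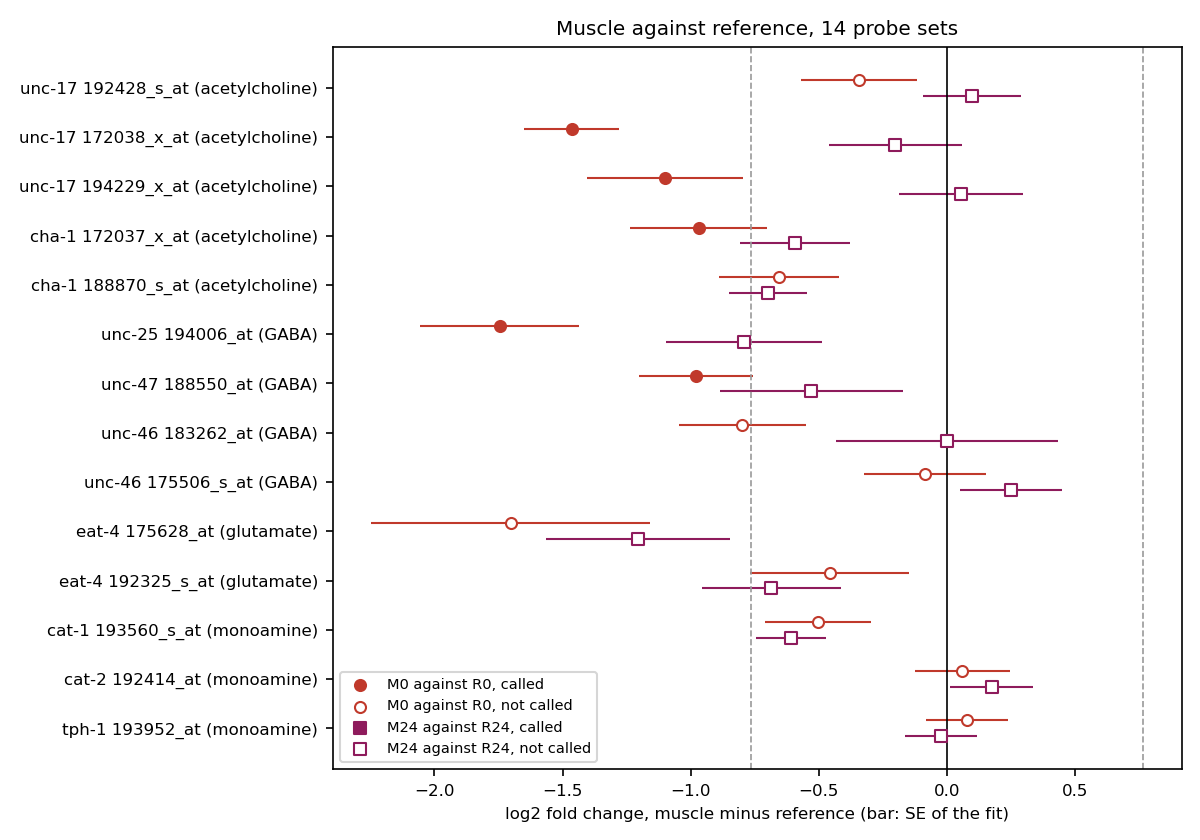
Log2 fold change of muscle less reference for the 14 member probe sets (circles: M0 against R0; squares: M24 against R24; filled: called; bars: SE of the fit; dashed lines: the fold minimum of 1.7). Filled circles mark the 5 probe sets lowered at 0 hr, and no square is filled.

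At 0 hr, 2 scan days each held an M0 and an R0 array, so the differences can be read within a day. For unc-25 they were -2.08 and -2.24, for 172038_x_at of unc-17 they were -1.63 and -1.26, and for unc-47 they were -0.85 and -0.88. These are as large as the pooled differences or nearly so. The 2 days differed more for 172037_x_at of cha-1 (-1.70 and -0.42), 194229_x_at of unc-17 (-1.80 and -0.65), 183262_at of unc-46 (-1.28 and -0.13) and 175628_at of eat-4 (-0.48 and -3.64). With scan day as a block, 4 of the 14 member probe sets were lowered.

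After 24 hr in culture the question was which of these genes differ between differentiated muscle and all cultured cells. No member probe set was called in either direction at 24 hr, while 5.93% of all probe sets were lowered and 2.26% raised. At an unadjusted p under 0.05, 6 of the 14 had a negative and none a positive difference, against 14.3% and 15.6% of all probe sets. By adjusted p alone, without the fold minimum, 2 were lower, 188870_s_at of cha-1 and the cat-1 probe set, against 6.55% of all probe sets. Without M24 replicate 3 the count of lowered member probe sets was 2, and without R24 replicate 3 it was 1. After quantile normalization of all arrays, 768 of all probe sets were raised and 1197 lowered at 24 hr, against 510 and 1337 as deposited, and no member was called. The median log2 fold change of the 14 was -0.37, against 0.09 over all probe sets, and all M24 arrays were under all R24 arrays for 4 of the 14, against 12.4% of all probe sets.

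No cholinergic probe set was called at 24 hr. For unc-17, 172038_x_at read 6.11, 5.95 and 6.77 in M24 against 6.99, 6.30, 6.31 and 6.31 in R24, with a difference of -0.20 ± 0.26 (limma adjusted p = 0.613). Its probe sets 194229_x_at and 192428_s_at differed by 0.06 ± 0.24 and 0.10 ± 0.19 (limma adjusted p = 0.89 and 0.748). All 3 thus overlapped between muscle and reference. For cha-1, 188870_s_at read 6.0, 5.93 and 5.79 in M24 against 6.80, 6.53, 6.31 and 6.77 in R24, without overlap. Its difference of -0.70 ± 0.15 (limma adjusted p = 0.0316) was just short of the fold minimum, which it passed without R24 replicate 3 (-0.80, adjusted p = 0.0265). The limma adjusted p itself missed the threshold with the replicate block (0.0942) and with scan day as a random block (0.134). It also missed without R24 replicate 1, 2 or 4 or M24 replicate 1 or 2 (0.0557 to 0.0897). For 172037_x_at, M24 values of 5.88, 5.84 and 6.17 overlapped with R24 values of 6.95, 6.55, 6.07 and 6.66, and the difference was -0.59 ± 0.21 (limma adjusted p = 0.12).

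The GABA genes unc-47 and unc-46 shared an array that stood apart. For unc-47, M24 replicates 1 and 2 read 6.55 and 6.47 but replicate 3 read 7.78, against 7.52, 7.45, 7.01 and 7.88 in R24. For 183262_at of unc-46, M24 replicates 1 and 2 read 6.75 and 6.46 but replicate 3 read 8.30, against 6.77, 7.30, 7.49 and 7.13 in R24. Replicate 3 was thus at the level of the reference or above it for both genes. With it, the differences were -0.53 ± 0.36 for unc-47 and 0.00 ± 0.43 for unc-46 (limma adjusted p = 0.343 and 0.999). Without it, unc-47 was lowered (-0.95 ± 0.23, adjusted p = 0.039) and unc-46 was at -0.56 (adjusted p = 0.125). The summed neuron markers of M24 replicate 3, 3333, were the lowest of the M24 arrays, and the part of this array's narrower range in the result was not tested. For unc-25, M24 read 6.0, 5.74 and 5.81 against 7.48, 6.39, 6.16 and 6.53 in R24. These did not overlap, R24 replicate 1 was the highest, and the difference of -0.79 ± 0.30 did not pass (limma adjusted p = 0.136). The dim 175506_s_at of unc-46 differed by 0.25 ± 0.20 (limma adjusted p = 0.417).

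For eat-4, 175628_at read 4.64, 3.99 and 5.44 in M24 against 5.81, 6.11, 5.40 and 6.26 in R24. Only M24 replicate 3 reached the range of the reference. The difference was -1.21 ± 0.36 (limma adjusted p = 0.0781), and without M24 replicate 3 it was called (-1.58, adjusted p = 0.0168). In the other fits of this probe set the adjusted p was 0.0509 to 0.235. Probe set 192325_s_at read 5.47, 5.14 and 5.43 in M24 against 6.05, 5.86, 5.51 and 6.70 in R24, with a difference of -0.69 ± 0.27 (limma adjusted p = 0.146). Here M24 was under R24 on every array.

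**Figure D3:**
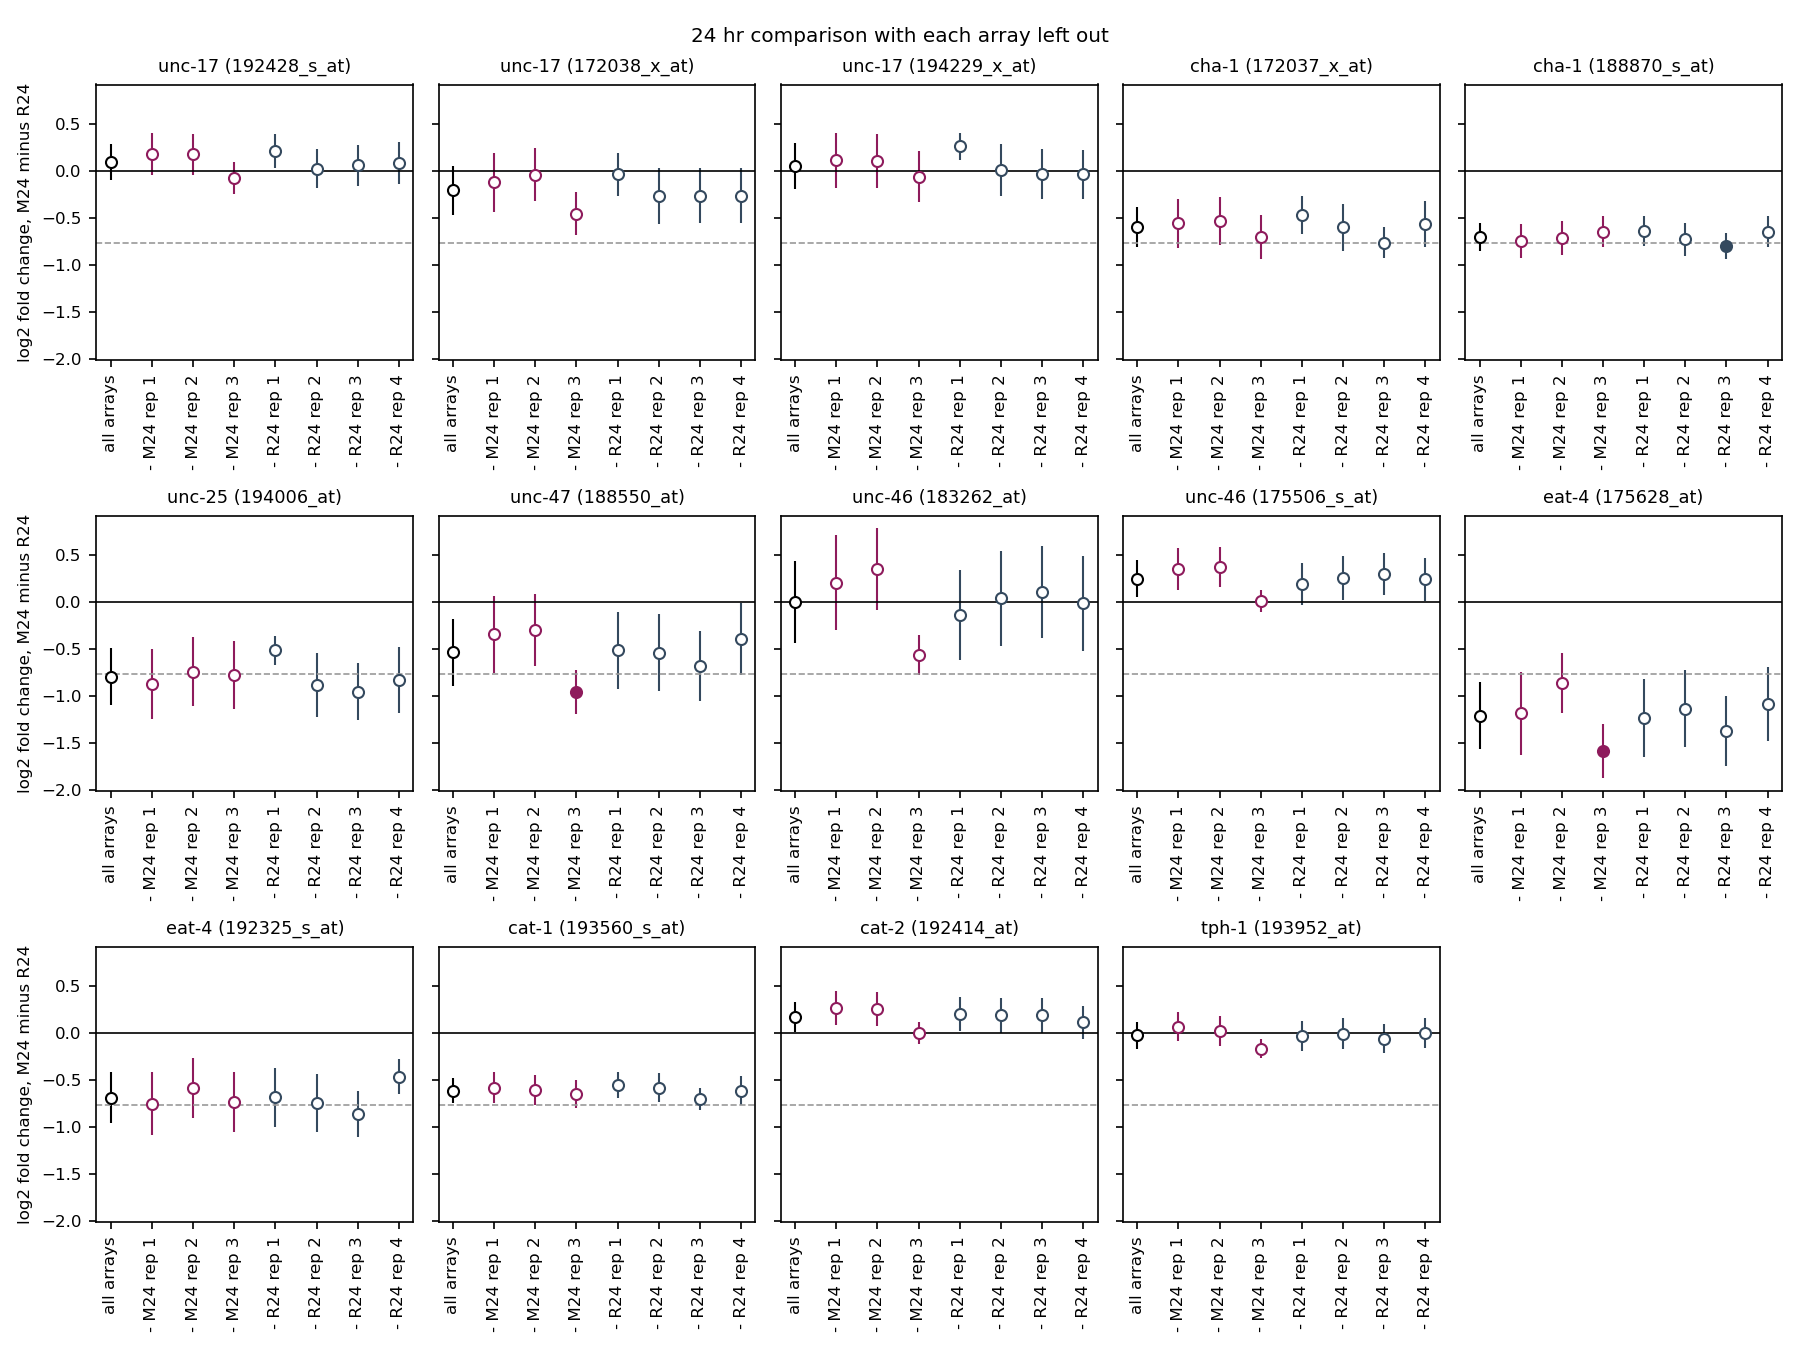
Log2 fold change of M24 less R24 for the 14 member probe sets, with all arrays (black) and with each M24 or R24 array left out (filled: called; bars: SE of the fit; dashed line: the fold minimum). Leaving out M24 replicate 3 moved unc-47 to -0.95 and 175628_at of eat-4 to -1.58, both then called, and 183262_at of unc-46 to -0.56, while 188870_s_at of cha-1 was called without R24 replicate 3.

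Among the monoamine genes at 24 hr, cat-1 read 6.48, 6.52 and 6.61 in M24 against 7.33, 7.24, 6.87 and 7.15 in R24. The groups did not overlap. The difference of -0.61 ± 0.14 had an adjusted p of 0.0343 in limma but was under the fold minimum, and over the alternatives the adjusted p was 0.0255 to 0.169. The enzyme genes again showed little difference. For cat-2 it was 0.17 with a 95% interval of -0.21 to 0.56 (limma adjusted p = 0.482), and for tph-1 it was -0.02 with a 95% interval of -0.35 to 0.31 (limma adjusted p = 0.923). The class medians at 24 hr were -0.20 for acetylcholine, -0.27 for GABA, -0.95 for glutamate and -0.02 for monoamines. At 24 hr no scan day held arrays of both groups, so no difference can be read within a day.

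Whether a gene's difference from the reference changed between 0 hr and 24 hr was tested as a difference of differences over all 13 arrays. No member probe set was called, where 0.936% of all probe sets were raised and 0.993% lowered, and 2 of the 14 had an unadjusted p under 0.05, both positive and both for unc-17, against 5.88% of all probe sets for positive and 7% for negative changes. The change was 1.26 ± 0.33 for 172038_x_at (limma adjusted p = 0.0824) and 1.16 ± 0.42 for 194229_x_at (limma adjusted p = 0.233). Without R24 replicate 1, the change of 172038_x_at was called (1.43, adjusted p = 0.0267). For unc-25 it was 0.95 ± 0.47 (limma adjusted p = 0.435). The other GABA genes had changes of 0.45 ± 0.45 (unc-47) and 0.80 ± 0.54 (183262_at of unc-46). For cat-1, cat-2 and tph-1 the changes were between -0.11 and 0.12. That unc-17 and unc-25 were called at 0 hr and not at 24 hr is thus not shown to be a difference between the times.

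Among 30 further genes of transmitter synthesis, transport and breakdown, 29 were measured, each by its brightest probe set. At 0 hr 2 were raised and 2 lowered, against 3.95% and 8.27% of all genes, and at 24 hr 3 were raised and 1 lowered, against 2.43% and 6% of all genes. Their median fold changes, -0.01 at 0 hr and -0.04 at 24 hr, were near those of all genes, 0.10 and 0.10. The count of genes lowered at 0 hr was 4 without R0 replicate 2 and 5 with scan day as a block, and that of genes raised at 24 hr was 1 without M24 replicate 1. Of 6 acetylcholine genes 1 was raised at each time, and of 2 GABA genes 1 was raised at 0 hr and 2 at 24 hr. Of 11 monoamine genes 2 were lowered at 0 hr and 1 at 24 hr, and none of 10 glutamate genes was called. Whether the calls differ by transmitter was not tested.

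The acetylcholinesterase gene ace-1, whose product breaks down acetylcholine, read 9.71, 9.12 and 9.01 in M0 against 7.49, 8.08 and 7.39 in R0, and 5.85, 6.15 and 5.21 in M24 against 4.31, 4.38, 3.94 and 4.11 in R24. Muscle was above the reference on every array. Its fold change was 1.63 ± 0.26 at 0 hr (limma adjusted p = 0.00316) and 1.55 ± 0.23 at 24 hr (limma adjusted p = 0.00953, and 0.0511 without M24 replicate 1). The R24 values of ace-1 were dim, each under the lower quartile of its array (4.62 to 4.70). With a pseudocount of 32 the 24 hr difference was 0.776, just over the fold minimum of 0.766 in log2. The plasma membrane GABA transporter gene snf-11 read 10.82, 9.73 and 10.80 in M0 against 9.07, 7.67 and 8.46 in R0, and 10.76, 11.55 and 9.26 in M24 against 8.44, 8.67, 7.48 and 8.34 in R24. It was raised by 2.05 ± 0.39 at 0 hr (limma adjusted p = 0.00854) and by 2.29 ± 0.54 at 24 hr (limma adjusted p = 0.0418), where the call was lost without any array other than M24 replicate 3 (highest adjusted p = 0.144) and with scan day as a random block (0.143), after median centring (0.0531) or with a pseudocount of 32 (0.0645). The GABA transaminase gene gta-1, which breaks down GABA, was raised at 24 hr, 1.17 ± 0.13 (limma adjusted p = 0.00377), with 11.08, 10.95 and 10.77 in M24 against 9.66, 9.69, 9.73 and 9.98 in R24, and did not pass in a fit of all 13 arrays (0.078). At 0 hr its difference of 0.65 ± 0.52 did not pass (limma adjusted p = 0.464) and became -0.26 with scan day as a block.

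Transcripts of tdc-1, the tyrosine decarboxylase gene for tyramine and octopamine synthesis, read 5.74, 4.59 and 5.64 in M0 against 7.89, 7.77 and 7.42 in R0. The log2 fold change was -2.37 ± 0.30 at 0 hr (limma adjusted p = 0.00112). At 24 hr it was -0.99 ± 0.21 (limma adjusted p = 0.0287), and that call was lost without R24 replicate 2 or 4 or M24 replicate 1 or 2 (highest adjusted p = 0.0849) and with scan day as a random block (0.163) or a pseudocount of 32 (0.0581). The dopamine reuptake transporter gene dat-1 was lowered at 0 hr, -1.72 ± 0.21 (limma adjusted p = 9.09e-04), and was at -0.68 ± 0.22 at 24 hr without passing (limma adjusted p = 0.0987). The other probe sets of ace-1, tdc-1 and dat-1 were dimmer and gave smaller differences, between -0.57 and 0.37 over the 2 times, and none was called. Those of tdc-1 did not all share its direction. Its x_at probe set differed by -0.04 at 0 hr and by 0.37 at 24 hr (limma adjusted p = 0.924 and 0.141). The remaining tdc-1 probe set differed by -0.57 and -0.22 (limma adjusted p = 0.0991 and 0.363). Neither cho-1, the choline transporter gene, nor mod-5, the serotonin reuptake gene, passed at 0 hr (-0.01 and 0.12) or at 24 hr (-0.0049 and 0.37).

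**Figure D4:**
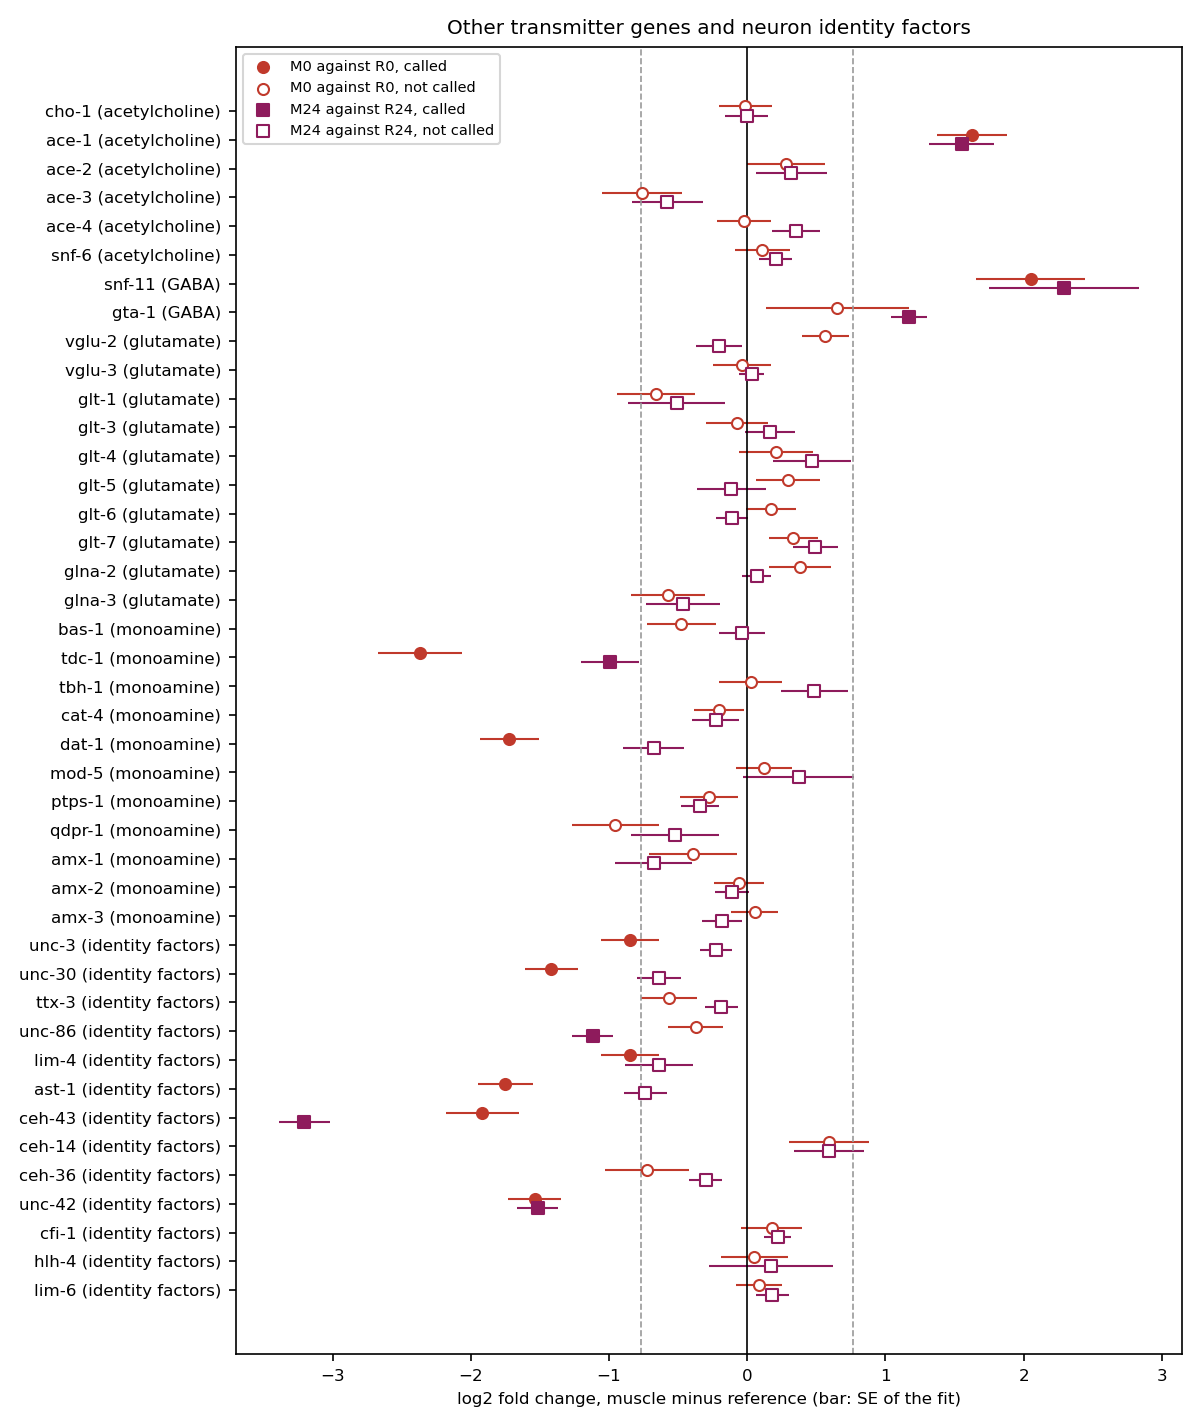
Log2 fold change of muscle less reference for 29 other transmitter genes and 13 transcription factors of transmitter neurons, each by its brightest probe set (circles: M0 against R0; squares: M24 against R24; filled: called; bars: SE of the fit; dashed lines: the fold minimum of 1.7). The genes ace-1 and snf-11 lie to the right at both times, and ceh-43 is farthest to the left at 24 hr, at -3.20.

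Transcription factors that specify transmitter neurons were also examined, 13 genes in all. At 0 hr 6 were lowered, against 8.27% of all genes, and none was raised. They were unc-30, a homeodomain factor of GABA motor neurons (-1.42 ± 0.19, limma adjusted p = 0.00139), ast-1, an ETS factor of dopamine neurons (-1.75 ± 0.20, limma adjusted p = 6.58e-04), ceh-43 (-1.92 ± 0.26), unc-42 (-1.54 ± 0.19), lim-4 and unc-3. The fold change of unc-3, a factor of cholinergic motor neurons, was -0.85 ± 0.21 (limma adjusted p = 0.0289). At 24 hr 3 were lowered, against 6% of all genes. They were ceh-43 (-3.20 ± 0.19, limma adjusted p = 8.95e-04), unc-42 (-1.52 ± 0.15, limma adjusted p = 0.00262) and the POU homeodomain gene unc-86 (-1.12 ± 0.15, limma adjusted p = 0.00645). The 3 became 5 without M24 replicate 3. The list's median was -0.72 at 0 hr and -0.30 at 24 hr. Factors such as ceh-43 are also known outside these neurons.

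The lowered member probe sets stood beside lowered neuron markers. The synaptic vesicle gene rab-3 and the SNARE gene ric-4 had fold changes of -2.37 ± 0.19 and -2.74 ± 0.27 at 0 hr and -1.76 ± 0.37 and -1.62 ± 0.24 at 24 hr, and the median of the 16 neuron markers was -1.46 at 0 hr and -0.88 at 24 hr. The corresponding medians of the 14 member probe sets were -0.73 and -0.37. Which share of the member differences goes with the neuron markers was not tested.

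The genes whose profiles were most like each member's were sought over the 13 arrays after centring each time, as Pearson's r between brightest probe sets. The 3 most similar were tni-4 (r = 0.972), osgn-1 (0.968) and rgs-6 (0.966) for unc-25, mapk-15 (0.954), trpa-2 (0.949) and aqp-6 (0.941) for cha-1, and fkh-9 (0.943), blmp-1 (0.935) and fbxa-152 (0.932) for cat-1. For unc-47 they were F52D10.2 (0.942), nep-1 (0.919) and lec-9 (0.909), for unc-46 D1046.4 (0.943), gtnt-57 (0.929) and F35A5.2 (0.906), and for eat-4 mfsd-10 (0.914), unc-52 (0.913) and ptrg-1 (0.909). The brightest unc-17 probe set was most like F34H10.4 (0.912), ptb-1 (0.911) and C01H6.8 (0.889), cat-2 most like W02B3.3 (0.949), rif-1.2 (0.948) and str-248 (0.940), and tph-1 most like oac-2 (0.888), sprr-2 (0.880) and abf-4 (0.866). The arrays compared share their groups and scan days, and these values describe the 13 arrays only.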

How the data were processed

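The authors amplified total RNA, labelled it with biotin and processed the scans with RMA (robust multiarray analysis), per the labels, and deposited 1 linear-scale intensity for every probe set and array. Deposited scanner settings of 12 arrays (other text, no measurements) gave scan day and chip lot, and R24 replicate 4, with no such record, was treated as a day of its own. Arrays of the same time shared 55 to 1410 distinct intensity values and arrays of different times 0 or 1, so the times were taken to come from separate RMA runs. The chip lot differed between the times as well.

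Intensities were log2-transformed without a pseudocount. The comparisons were M0 less R0, M24 less R24, and the second difference less the first, in limma 3.58.1 in R 4.3.3 (lmFit and eBayes, two-sided, Benjamini-Hochberg adjustment over all 22548 probe sets, threshold 0.05, fold minimum 1.7). Gene names come from the platform annotation, and all 20766 probe sets naming 1 gene matched the RefSeq table (WBcel235) by identifier or symbol. The script was tested on simulated data. The deviations of same-numbered M0 and R0 arrays correlated at 0.22, 0.32 and 0.15, and those of differently numbered ones at -0.40 to 0.27. At 24 hr the same-numbered values were 0.21, -0.04 and 0.38, and the others -0.44 to 0.21. These values do not settle whether replicate numbers pair the samples at either time. The labels number the arrays of each group as biological replicates. The genes named are all members, the called genes of the lists and the 3 most similar genes of each member. Members and lists were chosen with earlier results of these data known. The alternatives were the replicate block, scan day as a fixed (0 hr) or random (24 hr) block, quantile normalization, centring on medians, a pseudocount of 32, leaving out dim probe sets, an intensity trend, no fold minimum, a fit of all 13 arrays, averaging the probe sets of a gene, and leaving out each array. A planned search of promoters for 2 motifs was not run. Plots were made in Python 3.11.15 (matplotlib 3.10.9).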

Additional observations from a re-analysis of the deposited data

Results flagged for a closer look

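In groups of 4 arrays, the array at either end was set against Dixon's critical value of 0.829 for its gap to the nearest other array as a share of the range. Of 19 such groups tested, 3 exceeded it, and chance alone flags about 1 in 20. On R24 replicate 1, the unc-17 probe set 172038_x_at read 6.99, with the other R24 arrays between 6.30 and 6.31, and the unc-17 probe set 194229_x_at read 6.22, with the others between 5.32 and 5.46. On R24 replicate 4, cat-2 read 5.67, with the others between 5.90 and 5.94. Without R24 replicate 1 the change of 172038_x_at between the times was called (1.43, limma adjusted p = 0.0267).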

How the results depend on the processing

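The count of 5 member probe sets lowered at 0 hr was 3 with a pseudocount of 32, 3 (of 9 genes) with the probe sets of a gene averaged, and 2 to 5 with each array left out. At 24 hr the count of 0 was 2 without the fold minimum and 0 to 2 with each array left out, and the difference of the times gave 0 raised, 1 with a pseudocount and 0 to 1 with each array left out. The replicate block lowered 6 member probe sets at 0 hr, 183262_at of unc-46 being added with no other member call changed, and none at 24 hr. Whether replicate numbers pair the arrays is not settled. Over all probe sets at 24 hr, 510 were raised and 1337 lowered, against 251 and 755 with the replicate block, 188 and 430 with scan day as a random block, 296 raised with the pseudocount, 768 after quantile normalization and 806 without the fold minimum. At 0 hr the pseudocount gave 1129 lowered, against 1784. For the difference of the times the replicate block gave 78 raised and 94 lowered, against 211 and 224. The causes were not tested.

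Signs turned for 12 values, none of them called, of which gta-1 at 0 hr (0.65) and 175628_at of eat-4 for the difference of the times (0.50) were the farthest from 0. At 0 hr, 175506_s_at of unc-46 became 0.12 and gta-1 became -0.26 with scan day as a block. At 24 hr, 183262_at of unc-46 became 0.0080 with scan day as a random block, 0.32 after quantile normalization and 0.027 with the pseudocount, tph-1 became 0.13 after quantile normalization and 0.0016 with the replicate block, and 194229_x_at of unc-17 became -0.033 with that block. The difference of the times for 188870_s_at of cha-1 became 0.015 with the replicate block and 0.13 after quantile normalization, which also gave 0.058 for cat-1. With each array left out, values ran from -0.29 to 0.050 for 175506_s_at and from -0.084 to 0.15 for cat-2 at 0 hr. At 24 hr they ran from -0.073 to 0.21 for 192428_s_at and -0.057 to 0.27 for 194229_x_at of unc-17, from -0.56 to 0.35 for 183262_at of unc-46 and from -0.16 to 0.070 for tph-1. For the difference of the times they ran from -0.20 to 0.16 for 188870_s_at of cha-1, -0.21 to 0.91 for 175628_at and -0.51 to 0.046 for 192325_s_at of eat-4, -0.28 to 0.050 for cat-1 and -0.057 to 0.26 for cat-2.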
